A study of Mus musculus with 2 samples.

Results

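Myh11 negative pericytes were examined among mesenchymal stromal cells (MSC) of mouse intestinal grafts. A cell was taken as a Myh11 negative pericyte when it held at least 1 unique molecular identifier (UMI, 1 counted RNA molecule) of Rgs5, a UMI of at least 2 of the 4 genes Notch3, Kcnj8, Vtn and Cspg4, and no UMI of Myh11 or Pdgfra. Of 21199 barcodes in 2 libraries, 17783 held 500 genes or more with no more than 10% of UMIs from mitochondrial genes, and 612 of these were Myh11 negative pericytes, 262 in the large intestinal (LI) and 350 in the small intestinal (SI) graft library. The 7 genes of the rule chose the cells, so their levels are a description and were not tested.

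The study asked which MSC subsets arise from embryonic intestine when it grows outside the gut. Embryonic small or large intestine (E12.5) labelled EYFP (C57BL/6), from EYFP sires and C57BL/6Nrj dams, in which the graft's own cells carry yellow fluorescent protein, was grafted below the renal capsule of wild type adults and collected 4 weeks later. The LI graft and SI graft groups shared this genotype, host and time, neither had a further treatment, and they differed in the gut segment grafted. Live YFP+ Itgb1+ cells were sorted after removal of cells with CD45, Ter119, BP3, CD31, EpCAM or L1CAM, a gate meant to leave out host cells and immune, erythroid, endothelial, epithelial and glial cells. Several grafts were pooled before the LI library was made, and whether a 3′ or a 5′ kit was used for each library was not given, so that graft segment, pool and kit cannot be told apart.

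Pericytes are mural cells that lie on capillaries and small venules inside the basement membrane they share with the endothelium. They are held there by PDGF-B from the endothelium acting on the receptor Pdgfrb, their identity depends on Notch signals through Notch3, and they set vessel tone through potassium channels that couple metabolism to membrane potential. Vascular smooth muscle cells of arterioles and larger vessels share these genes and add a contractile apparatus, of which the smooth muscle myosin heavy chain Myh11 is the usual marker. Cxcl9, a chemokine that attracts T cells, and Ubd, a ubiquitin-like protein, are induced in many stromal cells by interferon-gamma.

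The libraries held 63348069 (LI) and 54918006 (SI) UMIs, and 26 barcodes were shared between them, none of which belonged to a pericyte. There was 1 library per group and cells of 1 library are not replicates, so no p-value is given anywhere. Levels are pooled CPM, that is, a gene's UMIs over a whole group of cells scaled to 1000000 UMIs of that group. Intervals are 95% intervals that cover counting error only, not the spread between grafts or animals.

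Myh11 negative pericytes made up 2.65% (Clopper-Pearson interval 2.35 to 2.99) of passing cells in the LI library and 4.42% (3.98 to 4.90) in the SI library. After every cell had been thinned to 2000 UMIs and the rule applied again, the shares were 2.74% and 4.54%. Among cells called female from an Xist UMI without a Y-linked UMI, they were 2.60% and 3.40%. The SI share was thus above the LI share in each of these readings, with less distance between them in female-called cells. The pericytes were shallow, with a median of 4071 (LI) and 3589 (SI) UMIs against 5333 and 5758 in all other passing cells. They held a median of 1806 and 1686 genes.

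The rule worked at the limit of single UMIs, so the cells at its borders were compared. Pericytes with UMIs of all 4 genes (47 LI and 65 SI cells) held 654 and 591 CPM of Pdgfrb, a gene the rule did not use, and those with 2 of the 4 genes (97 and 119 cells) held 444 and 715 CPM. Just outside, cells with Rgs5 and 1 of the 4 genes (190 and 191 cells) held 131 and 122 CPM of Pdgfrb, with 9619 and 13547 CPM of Dcn, the fibroblast proteoglycan decorin. Cells with Rgs5 and none of the 4 held 79.1 and 64.7 CPM of Pdgfrb. The requirement for 2 of the 4 genes therefore separated cells that differed in an unused marker. Pericytes with exactly 1 Rgs5 UMI (11 and 5 cells), which the rule took in, held 167 and 174 CPM of Pdgfrb and 6564 and 7948 CPM of Dcn. Cells with no Rgs5 UMI that met the rest of the rule (47 and 16 cells) held 55.3 and 68.5 CPM of Pdgfrb and 11524 and 5100 CPM of Dcn. Among all other passing cells, 21.4% in the LI and 63.4% in the SI library carried an Rgs5 UMI.

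A missing Myh11 UMI is a weaker criterion than a present one. At the level of Myh11 in the Myh11 positive mural cells described below (811 CPM in LI, 1005 CPM in SI), a pericyte of median depth would have held 3.30 and 3.61 Myh11 UMIs. When cells were thinned to 2000 UMIs before the rule was applied, 62 of 251 LI and 92 of 335 SI cells that it chose carried a Myh11 UMI at their full depth. Cells with exactly 1 Myh11 UMI that met the rest of the rule (97 LI, 152 SI) held 1527 and 2406 CPM of Acta2, smooth muscle actin, which lay between the 754 and 1660 CPM of the pericytes and the 7053 and 7972 CPM of cells with at least 2 Myh11 UMIs. In these pooled counts the cells at the border thus lay between both mural groups, and whether single cells form a gradient was not tested.

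Genes that the rule had not used also marked these cells. Higd1b, a mitochondrial protein known from pericytes, was at 147 CPM in LI and 290 CPM in SI pericytes, against 3.41 and 17.1 CPM in all other cells. In cells with a Pdgfra UMI and neither Rgs5 nor Myh11 (3594 LI and 1153 SI cells, called Pdgfra positive cells, mostly fibroblasts), 0.111% and 0.434% of cells had a Higd1b UMI, against 33.6% and 45.4% of pericytes. Median depths were 5767 and 6181 UMIs in the Pdgfra positive cells, so the lower shares were found at higher depth. Of the genes of the rule, Notch3 and Vtn UMIs were likewise rare there, in 1.17% and 0.863% (LI) or 1.73% and 1.82% (SI) of cells. Kcnj8 and Cspg4 UMIs were less rare, in 13.6% and 8.71% of the LI Pdgfra positive cells. Of genes outside the rule, Pdgfrb and Abcc9 UMIs were in 33.4% and 12.1% of these LI cells, against 88.5% and 69.5% of LI pericytes.

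**Figure D1:**
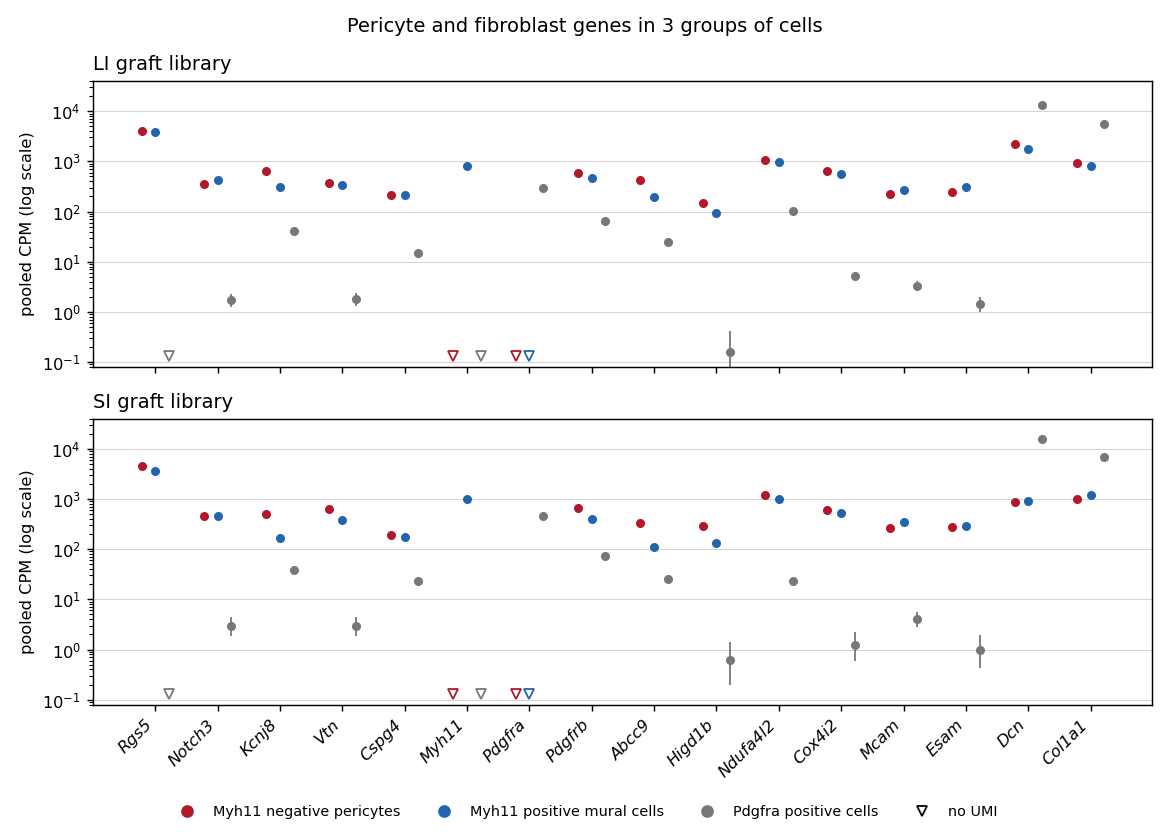
Pooled CPM (log scale) of genes of the rule (left), other pericyte genes and fibroblast genes (right) in Myh11 negative pericytes, Myh11 positive mural cells and Pdgfra positive cells of both libraries, with lines for 95% Poisson intervals and open triangles for no UMI. Pericytes and mural cells lie close together for most genes, for example at 593 and 471 CPM of Pdgfrb in LI, and apart from the Pdgfra positive cells at 65.5 CPM.

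Of 3690 genes with at least 50 CPM in the pericytes or the other cells of the LI library, 355 were at least 2-fold higher in pericytes (9.62%) and 328 lower (8.89%). In SI, 327 of 3713 were higher (8.81%) and 355 lower (9.56%). These shares are the background against which gene lists are read, and ratios are log2 ratios of CPM + 1. Of 30 pericyte and mural genes listed apart from the rule, 22 of the 25 that reached the minimum were higher in LI and 21 of 24 in SI, none was lower, and their median log2 ratios were 2.61 and 2.18 against 0.14 and 0.17 over all genes. Of the 20 fibroblast genes listed, 16 of 18 in LI and 18 of 18 in SI were lower, with medians of -2.46 and -3.12. Against the Pdgfra positive cells alone, 399 of 3698 genes were higher (10.8%) and 361 lower (9.76%) in LI, and 413 of 3775 higher (10.9%) and 416 lower (11.0%) in SI. Since the same cells had been chosen by linked genes, these counts describe the group and are not evidence for it.

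Several receptors were among the higher genes. Pdgfrb, the receptor that retains pericytes on vessels, was at 593 CPM in LI and 657 CPM in SI pericytes against 82.8 and 108 CPM in other cells, with log2 ratios of 2.83 and 2.59. Ednra and Ednrb, the receptors of the vasoconstrictor endothelin, were at 297 and 281 CPM in LI and 190 and 242 CPM in SI, against 44.3 to 80.3 CPM in other cells. Adra2a, an adrenergic receptor, was at 68.4 and 146 CPM against 3.98 and 8.80 CPM. S1pr3, a receptor for sphingosine 1-phosphate, was at 191 and 172 CPM against 34.2 and 54.0 CPM. Of 18 ligands and receptors of vessel signalling that reached the minimum, 9 were higher and 3 lower in LI, and 8 higher and 6 lower in SI.

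Among ligands, Pdgfa was higher in pericytes of both libraries (156 against 52.7 CPM in LI, 310 against 86.8 CPM in SI). Angpt2, an angiopoietin that loosens contacts of the vessel wall, was at 59.0 against 5.16 CPM in LI and 40.5 against 12.7 CPM in SI, and in SI neither group reached the minimum. Bmp4 was lower in both (50.4 against 266 CPM, and 29.6 against 192 CPM), as was Agt, the angiotensin precursor. The cytokine Il34, a ligand of the macrophage receptor Csf1r, was at 135 against 10.8 CPM in LI and 173 against 35.0 CPM in SI. Ccl11, a chemokine for eosinophils, was at 777 against 236 CPM and 1620 against 319 CPM. Il34 and Ccl11 were the only 2 of 15 listed cytokine and adhesion genes that were higher in LI pericytes, where 8 were lower (median -1.16), and in SI 4 of 14 were higher and 3 lower (median 0.29).

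Notch pathway genes were few above the minimum. Of 20 listed without Notch3, 6 (LI) and 7 (SI) reached 50 CPM, and the same 4 genes were higher in both libraries. Notch1, a second Notch receptor, was at 88.0 and 108 CPM against 14.5 and 18.4 CPM in other cells. The ligand Jag1 was at 53.9 and 63.4 CPM against 13.1 and 25.5 CPM. Heyl and Nrarp, which Notch signals induce, were at 135 and 62.4 CPM in LI and 116 and 80.3 CPM in SI, against 5.51 to 24.5 CPM. A receptor, a ligand and targets of the pathway were therefore all above the other cells.

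Channel genes included both partners of the vascular ATP-sensitive potassium channel, of which Kcnj8 forms the pore and was used by the rule. Its sulfonylurea receptor subunit Abcc9 was at 427 CPM in LI and 332 CPM in SI pericytes against 36.6 and 35.6 CPM in other cells. Of the listed channel genes other than Kcnj8, 5 of 7 (LI) and 5 of 8 (SI) were higher, among them the regulatory subunit Kcne4 and the chloride channel Ano1. Kcnk2, a stretch-activated potassium channel, was lower at 16.2 against 112 CPM and 8.46 against 86.0 CPM. Ndufa4l2 and Cox4i2, isoforms of respiratory chain subunits, were at 1069 and 633 CPM in LI and 1189 and 612 CPM in SI, against 113 and 25.6 CPM, and 137 and 62.0 CPM.

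Genes of the basement membrane were split. Of 19 listed genes at the minimum in LI, 8 were higher and 3 lower, and of 17 in SI, 7 were higher and 2 lower. The collagen IV chain Col4a1 was at 2767 against 741 CPM in LI and 2480 against 816 CPM in SI, Col18a1 at 693 against 152 CPM and 629 against 219 CPM, and Itga1, a collagen receptor, at 240 against 42.1 CPM and 283 against 60.4 CPM. Hspg2, which encodes perlecan, and Col15a1 were lower in both. Lamc3, a laminin gamma chain that was not on this list, was at 167 and 93.6 CPM against 6.38 and 5.20 CPM.

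Ranked by the smaller of both libraries' log2 ratios, and without the genes of the rule, the leading genes included Higd1b, Lamc3, Adra2a, Art3, Cdh2, Rgs4, Stc1, Uchl1, Gja4, Cox4i2, Tnfrsf21, Abcc9, Apold1, Ndufa4l2, Tusc5, Rasgrp2, Rasl12, Ebf1 and Esam. They spanned signal regulators (Rgs4, like Rgs5 an inhibitor of G protein signals, at 446 and 510 CPM against 16.3 and 43.1 CPM), cell contact proteins (N-cadherin Cdh2, the gap junction connexin Gja4 and Esam) and a transcription factor, Ebf1, at 1351 and 1327 CPM against 199 and 174 CPM. Each was detected in at least 49 pericytes of each library, and no single cell gave more than 11.8% of a gene's UMIs. Uchl1, a ubiquitin hydrolase better known from neurons, was at 90.6 and 105 CPM against 6.87 and 8.42 CPM, while Sox10 and Elavl4, defining glial and neuronal markers, had no UMI in either set of pericytes. Among transcription factors, Foxs1, Tbx2, Tbx3, Mef2c and Nr2f2 were also higher in both libraries.

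The 10 genes most lowered in both libraries were Saa3, Serpinf1, Smoc2, Adamdec1, Sfrp1, Cnn1, C1qtnf3, Serpina3n, Fbln2 and Creb3l1, mostly secreted products of fibroblasts. Dcn was at 2266 CPM in LI and 864 CPM in SI pericytes against 12534 and 13280 CPM in other cells. Serpinf1, an inhibitor of angiogenesis, was at 23.9 and 9.06 CPM against 354 and 223 CPM. Saa3, an acute phase protein, had no UMI in SI pericytes, which puts it at least 39.1-fold below the 70.8 CPM of other SI cells when 3 counts are taken as the limit. In LI, 1 pericyte held 11.2% of all Dcn UMIs of the group and 174 of 262 pericytes had at least 1. Whether this Dcn was the cells' own or free RNA was not tested.

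Markers of other cell types were summed over each list. The 12 immune markers together gave 25.6 CPM in LI and 35.6 CPM in SI pericytes against 120 and 84.3 CPM in other cells, with Ptprc, the gene of CD45, at 0 in both. Pericytes with UMIs of at least 2 of the 12 immune markers numbered 4 of 262 and 5 of 350. Endothelial markers were higher than in other cells: the 12 summed to 214 and 272 CPM against 99.6 and 124 CPM, and 14.1% of LI and 14.6% of SI pericytes held at least 2 of their UMIs, against 5.05% and 7.86% of other cells (3.19% and 3.28% against 0.798% and 1.19% at 2000 UMIs). Of the sums, Eng gave 113 and 140 CPM. Cldn5 was at 0 in both, Cdh5 was at 0 in LI, and Emcn was at 34.2 and 33.2 CPM against 3.73 and 2.08 CPM. The 10 glial and neuronal markers summed to 131 and 146 CPM against 16.5 and 19.8 CPM, nearly all of it Uchl1 and Tubb3, and the 8 markers of interstitial cells of Cajal to 372 and 211 CPM against 331 and 176 CPM. The part of other cells in these sums was not tested. Epithelial markers summed to 5.13 and 4.83 CPM and mesothelial markers to 6.84 and 2.42 CPM, with Cdh1 and Msln at 0 in both. Erythroid markers gave 0 and 0.604 CPM. The 12 kidney and renin markers summed to 64.1 CPM in LI, nearly all of it Ren1, and 8.46 CPM in SI, with the tubule gene Umod and the podocyte gene Nphs1 at 0.

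Cell cycle genes were above those of other cells, and near those of the Myh11 positive mural cells described below, where they summed to 520 CPM (LI) and 583 CPM (SI). The 14 genes found in the files summed to 607 CPM in LI and 644 CPM in SI pericytes against 143 and 251 CPM, and all that reached the minimum (3 in LI, 6 in SI) were higher. Top2a, a topoisomerase of dividing cells, was at 88.0 and 105 CPM against 20 and 34.6 CPM and was carried by 19 of 262 and 26 of 350 pericytes. At 2000 UMIs per cell, 13 of 251 LI (5.18%) and 19 of 335 SI pericytes (5.67%) held UMIs of at least 2 of these genes. The shares were 4.72% and 5.69% in Myh11 positive mural cells, and 1.80% and 3.07% in all other cells. Immediate early and heat shock genes, which respond to tissue digestion, showed no such difference: 0 of 22 were 2-fold higher in either library.

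The closest cells were those that met the same rule but carried a Myh11 UMI, here called Myh11 positive mural cells, of which there were 277 in LI (2.81%) and 679 in SI (8.58%), or 1.16% and 4.06% at 2000 UMIs per cell. Their median depth was 4960 and 5520 UMIs. Few genes differed between both mural groups: 43 of 3546 genes were 2-fold higher in LI pericytes (1.21%) and 80 lower (2.26%), and 39 of 3459 were higher in SI (1.13%) and 77 lower (2.23%). Of 25 pericyte genes in LI, 1 was higher in the Myh11 negative pericytes (Abcc9), and of 24 in SI, 3 were higher (Abcc9, Higd1b and Agtr1a), with medians of 0.14 and 0.26. By contrast, 15 of 19 contractile genes in LI and 13 of 17 in SI were lower, with medians of -1.52 and -1.50 against 0.05 over all genes. With the groups chosen again at 2000 UMIs per cell, 10 and 8 were lower. Myh11, which split the cells, was not on that list, although genes that vary with it are tied to the same choice.

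Contractile genes were reduced but not absent in the pericytes. Acta2 was at 754 CPM in LI and 1660 CPM in SI pericytes against 5411 and 7003 CPM in Myh11 positive mural cells. Per cell, the Acta2 level had a median of 125 CPM in LI pericytes, with a highest value of 19002, and a median of 1930 CPM in LI mural cells. In SI the medians were 283 and 3562 CPM, with highest values of 13618 and 37462. The ranges of both groups therefore overlapped widely. Tagln, an actin binding protein, was at 592 against 4642 CPM and 954 against 6011 CPM, and Myl9, the regulatory light chain of smooth muscle myosin, at 456 against 2000 CPM and 764 against 2426 CPM. Cnn1, the calponin of mature smooth muscle, was almost missing at 4.27 against 171 CPM and 6.04 against 336 CPM. Des, the intermediate filament desmin known from both cell types, differed less, at 476 against 980 CPM and 830 against 1457 CPM.

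The 8 genes that led in the direction of the pericytes in both libraries were Stc1, Pdzd2, Abcc9, Kcne4, Ggt5, Cygb, Hic1 and Vstm4. Stc1, a secreted glycoprotein of calcium balance, was at 144 against 38.6 CPM in LI and 62.8 against 19.8 CPM in SI. Abcc9 was at 427 against 192 CPM and 332 against 112 CPM, with log2 ratios of 1.15 (0.94 to 1.36) and 1.56 (1.40 to 1.75), and its partner Kcnj8, a gene of the rule, at 651 against 315 CPM and 510 against 169 CPM. Cygb, the haem protein cytoglobin, was at 768 against 383 CPM and 662 against 279 CPM. Kcnj8 helped to choose both groups, so its level is a description. Cox4i2 had log2 ratios of 0.20 and 0.25.

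The 8 genes that led in the other direction were Cnn1, Sorbs2, Actg2, S100a4, Tagln, Nrip2, Fbxl22 and Acta2. Actg2, the actin of visceral smooth muscle, was at 63.3 against 698 CPM and 84.6 against 1320 CPM. Among genes outside the contractile list, the Notch ligand Jag1 had log2 ratios of -0.77 (-1.24 to -0.35) and -1.05 (-1.37 to -0.76), Nrarp of -0.98 in both libraries, and the transcription factor Mef2c of -1.21 and -0.94. These 3 genes lay around the 2-fold limit and in the same direction in both libraries.

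**Figure D2:**
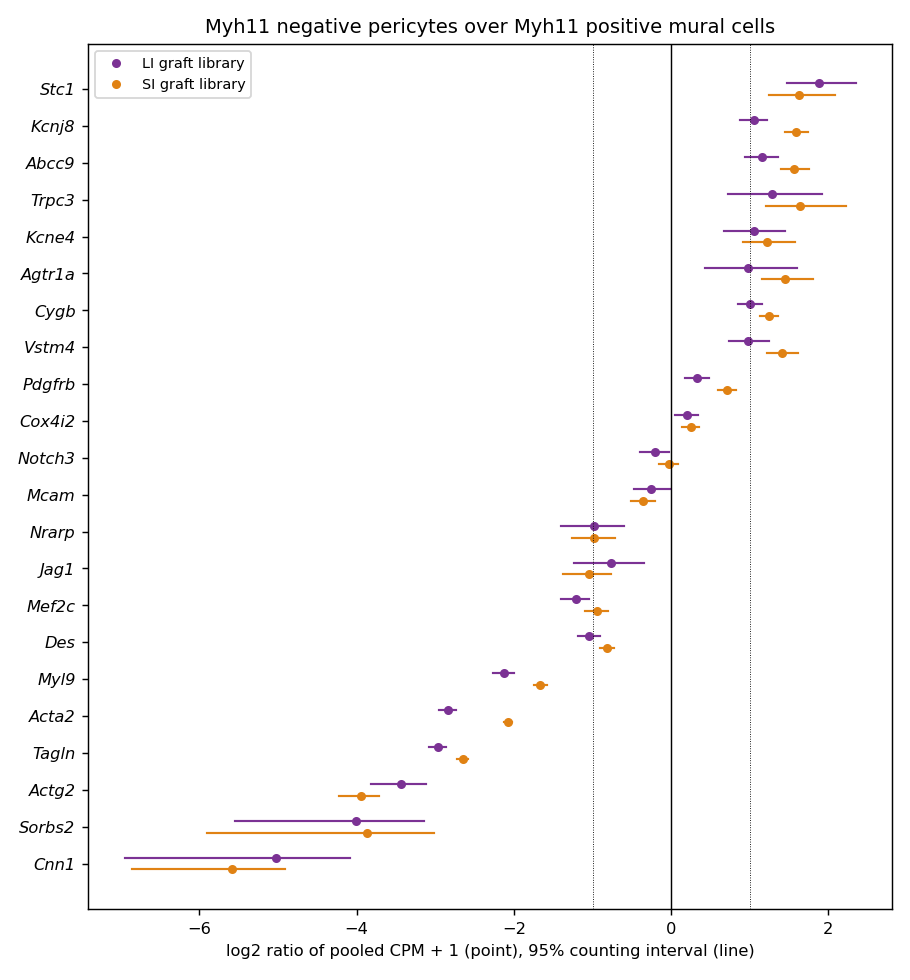
Log2 ratios of pooled CPM + 1, Myh11 negative pericytes over Myh11 positive mural cells, for 22 genes in the LI and SI libraries, with lines for 95% counting intervals of the CPM ratio and dotted lines at 2-fold. Stc1, Kcnj8 and Abcc9 lie to the right in both libraries and the contractile genes to the left, with Cnn1 farthest at -5.02 and -5.58.

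To show sequence near the start of contractile genes, the promoters of RefSeq (250 bases before to 50 after the start, build GRCm38.p6) were searched on both strands for the CArG box, the serum response element core bound by SRF. It was found in 2 of the 17 contractile genes that had an entry (11.8%), Myl9 and Myl6, against 1.81% of 27025 genes. Both are printed in the 5′ to 3′ direction of the gene with the box in capitals, Myl9 from chr2:156775293-156775322 (+ strand) and Myl6 from chr10:128493040-128493069 (- strand). A match describes the letters and is not evidence of binding.
Myl9: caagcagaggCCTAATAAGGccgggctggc
Myl6: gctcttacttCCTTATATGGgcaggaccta
Myl9 was 2-fold lower than in mural cells in both libraries, and Myl6, a light chain found in most cells, in SI alone.

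A subset of the pericytes carried a UMI of Cxcl9 or Ubd and is called inflammatory pericytes here. There were 24 of 262 in LI (9.16%, 5.96 to 13.3) and 113 of 350 in SI (32.3%, 27.4 to 37.5). At 2000 UMIs per cell the shares were 5.58% (14 of 251) and 30.4% (102 of 335). The SI share was thus above the LI share at equal depth. The share was not particular to pericytes: all other cells stood at 12.0% and 24.2%, Myh11 positive mural cells at 9.03% and 28.6%, and Pdgfra positive cells at 14.6% and 24.5%, at higher median depths than the pericytes. At 2000 UMIs these shares were 7.63% and 17.8% in all other cells, 4.72% and 23.1% in mural cells, and 7.74% and 17.5% in Pdgfra positive cells. No group in the sort was known to lack Cxcl9, so a level of free RNA could not be set.

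Single cells weighed on the LI subset. In LI, 23 pericytes had a Cxcl9 UMI, 12 of them exactly 1, and 6 had an Ubd UMI. The LI pericyte with the most Cxcl9 held 98 UMIs, which was 38.1% of all Cxcl9 UMIs of LI pericytes. In SI, 112 pericytes had a Cxcl9 UMI, 28 of them exactly 1 and 48 at least 10, and 28 had an Ubd UMI. The SI pericyte with the most Cxcl9 held 212 UMIs and 6.88% of the total. The LI subset thus rested on few cells and the SI subset on many.

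The share moved with the sex of the cells. Cells were called female from Xist without a Y-linked UMI, male from a Y-linked UMI without Xist, and otherwise unclear. In SI, 54 of 99 male-called pericytes were inflammatory (54.5%, 44.2 to 64.6) against 29 of 148 female-called (19.6%, 13.5 to 26.9). In LI, 4 of 22 male-called (18.2%, 5.19 to 40.3) and 11 of 207 female-called (5.31%, 2.68 to 9.31) were inflammatory, and the intervals overlapped. Of pericytes of unclear sex, 9 of 33 in LI (27.3%, 13.3 to 45.5) and 30 of 103 in SI (29.1%, 20.6 to 38.9) were inflammatory, or 23.1% and 31.6% at 2000 UMIs. Male-called cells were also the more often inflammatory among Myh11 positive mural cells (70.0% of 10 and 50.5% of 210, against 4.78% and 8.79% of female-called cells) and Pdgfra positive cells (44.9% and 45.7%, against 9.21% and 11.7%). Male-called cells were the deeper, with medians of 4839 against 3907 UMIs in LI and 4430 against 3440 in SI pericytes. At 2000 UMIs, the male-called and female-called shares were 50.5% and 15.7% in SI and 10.5% (2 of 19) and 2.91% in LI pericytes, 37.1% and 6.87% in SI mural cells, and 37.3% and 7.65% (SI) or 24.4% and 4.82% (LI) in Pdgfra positive cells, while LI mural cells kept 1 male-called cell, which was not inflammatory. Male-called cells were 40.1% of the called SI pericytes and 9.61% of the called LI pericytes. Both libraries held female-called and male-called cells, and the sex of a cell, its graft, its embryo and any host cell left after the sort cannot be told apart. The number of grafts in the SI library was not given in the sources used here.

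Among female-called and among male-called pericytes the SI share was above the LI share, with few male-called cells in LI, whereas the shares in pericytes of unclear sex lay within each other's intervals. Cxcl9 was at 35.6 CPM in LI and 260 CPM in SI female-called pericytes, at 48.4 and 3581 CPM in male-called pericytes, and at 1314 and 2043 CPM in those of unclear sex. Cxcl10, a related chemokine, was at 669 and 1856 CPM in female-called pericytes, at 252 and 5451 CPM in male-called pericytes, and at 723 and 3643 CPM in those of unclear sex.

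**Figure D3:**
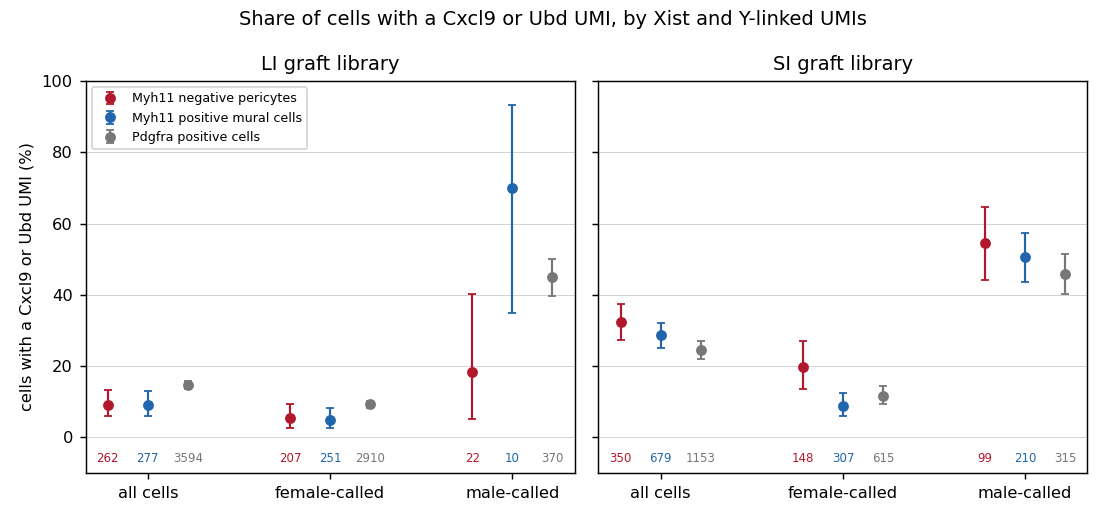
Share of cells with a Cxcl9 or Ubd UMI (%) among Myh11 negative pericytes, Myh11 positive mural cells and Pdgfra positive cells, for all cells and for female-called and male-called cells of each library, with Clopper-Pearson 95% intervals and the number of cells below. In SI, 54.5% of male-called and 19.6% of female-called pericytes were inflammatory.

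Outside the genes that chose the subset, 135 of 3648 genes in SI were 2-fold higher in inflammatory than in other pericytes (3.70%) and 50 lower (1.37%). In LI, 276 of 3842 were higher (7.18%) and 297 lower (7.73%), nearly balanced, from 24 cells with 130348 UMIs in all. Of 38 interferon-gamma responsive genes in the files, without Cxcl9 and Ubd, 30 of the 34 at the minimum were higher in SI and 16 of 29 in LI, none was lower, and the medians were 1.85 and 1.0. When the LI pericyte with the most Cxcl9 UMIs was left out, the LI count was 8. In female-called cells alone the counts were 15 in SI and 10 in LI.

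By cell, SI inflammatory pericytes had UMIs of a median of 20 of these 38 genes against 9.0 in the other SI pericytes, and at 2000 UMIs per cell of 17.0 against 6.0. In LI the medians were 12.5 against 7.5, and 11.0 against 4.0 at equal depth. The ranges overlapped, from 2 to 28 genes in the inflammatory and 0 to 23 in the other SI pericytes at equal depth. The inflammatory cells were the deeper, with a median of 5299 against 3967 UMIs in LI and 4690 against 3332 in SI, so the values at equal depth are the ones to read.

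The guanylate binding proteins, large GTPases that act against intracellular pathogens, were prominent among these genes. Gbp2 was at 831 CPM in SI inflammatory pericytes against 102 CPM in the other SI pericytes, a log2 ratio of 3.01 (2.72 to 3.35), and at 245 against 65.4 CPM in LI, a log2 ratio of 1.89 (1.25 to 2.53). Gbp3 was at 284 against 57.0 CPM and 138 against 32.7 CPM. Cxcl10 was at 6975 against 1305 CPM in SI and 1788 against 496 CPM in LI, and 1195 CPM in LI without the pericyte richest in Cxcl9. Irf1, an early factor of the interferon response, had log2 ratios of 0.72 in SI and -0.01 in LI and did not reach 2-fold in either.

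Genes of MHC class I presentation followed the same pattern, with 15 of 15 higher in SI and 11 of 14 in LI. Some of them, among them Tap1, Tapbp, Psmb8 and Psmb9, are on the interferon-gamma list as well. Without the LI pericyte richest in Cxcl9, Tap1, Tapbp and Psmb8 fell below 2-fold in LI (log2 ratios 0.48, 0.10 and 0.93) and the rest stayed past it. B2m, the light chain of all class I molecules, was at 3459 against 1240 CPM in SI and 2470 against 863 CPM in LI. H2-K1, a heavy chain, was at 3043 against 862 CPM and 2194 against 663 CPM. H2-T23, a nonclassical heavy chain that presents to natural killer cells, was at 727 against 165 CPM and 384 against 91.4 CPM. Class I genes were therefore higher in the inflammatory pericytes of both libraries when all cells were taken. In the 11 female-called LI inflammatory pericytes H2-T23 had a log2 ratio of -0.85. H2-Q7 had no UMI in these 11 cells, so its log2 ratio of -4.31 gives no direction. Of the MHC class II genes at the minimum, 4 of 4 were higher in LI (median 4.31) and 1 of 1 in SI (2.80), on few cells. Cd74, the invariant chain, was at 131 against 18 CPM in SI, in 13 cells, and at 690 against 52.9 CPM in LI, where 3 cells carried it and 1 of them held 73.3%. Interferon-alpha responsive genes were higher for 11 of 13 in SI and 1 of 9 in LI, the one being Bst2. LI inflammatory pericytes were instead higher for 10 of 15 cytokine and NF-kB genes and 7 of 11 hypoxia genes, against 4 of 11 and 0 of 8 in SI. Of 22 immediate early and heat shock genes, 6 were lower in LI (Atf3, Zfp36, Klf2, Klf4 and the near-identical Hspa1a and Hspa1b, with a summed level of the list of 22609 against 33826 CPM) and 1 in SI (25992 against 34145 CPM), and the part of handling in the results was not tested. Single cells again carried part of the LI values, with 96.9% of Cxcl2 and 97.4% of Ccl7 in 1 cell.

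The 15 genes that led this comparison in both libraries were Ccl5, Serpina3f, Cd74, Fabp4, Gbp4, Ifi205, Zbp1, H2-Q6, C3, H2-Q7, Ifi204, AW112010, Serpina3g, H2-T23 and Gbp3. In female-called cells alone, 8 of the 15 turned sign in 1 library, Cd74, H2-Q7, Serpina3g and H2-T23 in LI and Fabp4, C3, Ifi204 and AW112010 in SI. Cd74, H2-Q7 and Serpina3g had no UMI in the 11 female-called LI inflammatory pericytes, so their turned signs give no direction. Several rested on 1 cell in LI. Ccl5, a T cell chemokine, had 94.9% of its LI UMIs in 1 of 2 cells, and complement C3 had 73.5% in 1 of 7 cells. In SI, by contrast, Gbp4 was carried by 51 cells and its richest cell held 6.48%. H2-Q6 and H2-Q7, Serpina3f and Serpina3g, and Ifi204 and Ifi205 have close copies among which the counting could split reads, so their single values are uncertain.

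**Figure D4:**
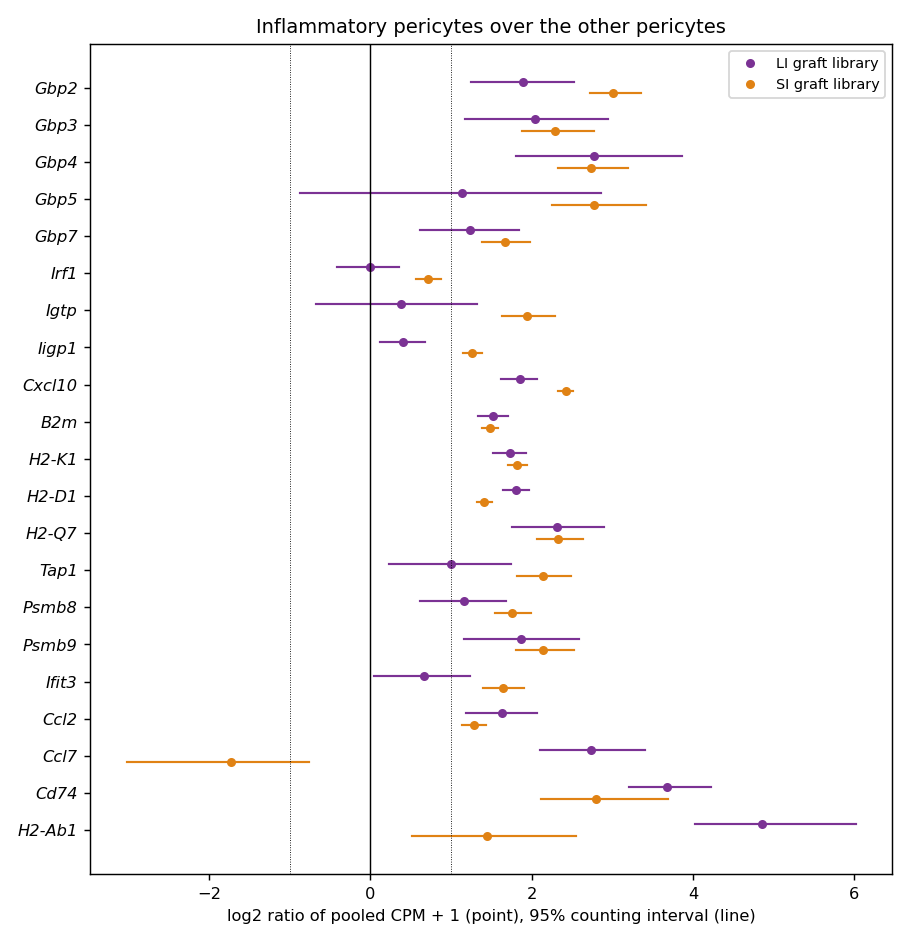
Log2 ratios of pooled CPM + 1, inflammatory over other pericytes, for 21 interferon responsive, antigen presentation and cytokine genes in the LI and SI libraries, with lines for 95% counting intervals of the CPM ratio and dotted lines at 2-fold. Gbp2 reaches 3.01 in SI and 1.89 in LI, whereas Irf1 lies at 0.72 and -0.01 and the LI values of Cd74 and H2-Ab1 rest on few cells.

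Immune cells in the same droplet were looked for by their markers. Of the 24 LI inflammatory pericytes, 0 had UMIs of at least 2 of the 12 immune markers, which allows a share of up to 12.5% when 3 cells are taken as the limit. In them 10 of 12 immune markers were at 0. Of the 113 SI inflammatory pericytes 3 had at least 2 markers (2.65%), against 2 of 237 other SI pericytes (0.844%), or 1.96% against 0.858% at 2000 UMIs. A cell with UMIs of 1 immune marker alone was not counted. The immune sum was 54.9 CPM (38.4 to 76.0) in SI inflammatory and 23 CPM (14.6 to 34.5) in other SI pericytes. Their endothelial sum was 369 CPM (324 to 418) against 208 CPM (181 to 238), and Emcn was 2-fold higher, at 56.4 CPM in 9 cells against 18 CPM. In LI the sums were 15.3 against 26.9 CPM (immune) and 230 against 212 CPM (endothelial), so both were higher with the subset in SI, and their part in the results was not tested. Ptprc, Cd3e, Cd3g and Nkg7 were at 0 in the inflammatory pericytes of both libraries, while in SI the myeloid genes Lyz2 (25.9 against 8.0 CPM, 8 cells), C1qb (15.2 against 5.0 CPM, 4 cells) and C1qa (10.7 against 2.0 CPM, 2 cells) were above the other pericytes. Of the pericyte genes themselves, 4 of 26 were higher and 2 lower in LI (median -0.06), and in SI 0 of 26 were higher and 1 lower, with a median of -0.36 against -0.04 over all genes and a summed level of 8573 against 10335 CPM. Rgs5 was at 2478 against 4261 CPM in LI and 3874 against 4839 CPM in SI. Dcn was lower in the inflammatory pericytes, at 1274 against 2390 CPM and 492 against 1108 CPM.

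The promoters of the interferon responsive genes were searched for the letters of the gamma-activated site (GAS, TTCNNNGAA), a short element known from genes that interferon-gamma induces, and of the interferon-stimulated response element (ISRE, TTTCNNTTTC), which IRF factors bind, on both strands. A promoter could hold both, and the motifs can share bases. Of 24 interferon-gamma responsive genes with an entry, 16 held at least 1 of them (66.7%), with GAS in 10 (41.7%) and ISRE in 12 (50%), against 12.9%, 9.55% and 3.99% of 27025 genes. Of 14 class I genes 5 held 1 (35.7%). Windows around 8 matches are shown because the genes were among those higher in the inflammatory pericytes or, for Irf1, because it was not, each in its gene's 5′ to 3′ direction with the motif in capitals. Genes marked reverse carry it on the opposite strand.
Cxcl10, ISRE reverse, chr5:92349083-92349112 (- strand): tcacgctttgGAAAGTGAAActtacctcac
Gbp2, ISRE, chr3:142620594-142620623 (+ strand): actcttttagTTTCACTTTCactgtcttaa
Gbp3, ISRE, chr3:142559989-142560018 (+ strand): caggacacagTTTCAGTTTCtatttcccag
B2m, ISRE reverse, chr2:122147538-122147567 (+ strand): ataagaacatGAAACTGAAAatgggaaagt
H2-T23, ISRE, chr17:36032806-36032835 (- strand): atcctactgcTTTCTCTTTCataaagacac
Igtp, GAS, chr11:58199501-58199529 (+ strand): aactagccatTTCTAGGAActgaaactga
Psmb8, GAS, chr17:34198088-34198116 (+ strand): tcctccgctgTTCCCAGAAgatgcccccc
Irf1, GAS, chr11:53769914-53769942 (+ strand): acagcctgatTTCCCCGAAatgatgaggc
Igtp, an immunity-related GTPase, was 2-fold higher in SI inflammatory pericytes with a log2 ratio of 1.94 and had 0.38 in LI, and Psmb8, a subunit of the immunoproteasome, had 1.76 and 1.16. Without the LI pericyte richest in Cxcl9, Psmb8 had 0.93 in LI. Irf1, whose GAS starts at position -90 from the gene's start, reached 2-fold in neither library.

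Between the libraries, 78 of 3602 genes were 2-fold higher in LI pericytes (2.17%) and 86 in SI pericytes (2.39%), and the respective shares were 1.66% and 2.09% in all other cells. Without the inflammatory pericytes they were 69 of 3647 (1.89%) and 45 (1.23%). Of the pericyte genes, 1 of 25 differed (Enpep, at 136 CPM in LI and 40.5 CPM in SI), and none of the 18 basement membrane, 7 Notch and 8 channel genes at the minimum reached 2-fold. The share of pericyte genes called was thus near that of all genes. Without the inflammatory pericytes, 3 of 26 pericyte genes differed, Enpep higher in LI and Higd1b and Agtr1a higher in SI. Of 15 vessel signalling genes at the minimum, Tgfb3 and Cxcl12 were higher in LI and Adra2a (68.4 against 146 CPM) in SI, and Higd1b (147 against 290 CPM) lay just under 2-fold.

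Hox genes, which hold the position of a cell along the gut, differed between the libraries. Genes of paralogue groups 9 to 13 summed to 380 CPM (345 to 417) in LI and 11.5 CPM (6.91 to 17.9) in SI pericytes, against 320 and 8.60 CPM in other cells. Hoxa9 was at 100 and 1.21 CPM, Hoxa10 at 88.9 CPM and no UMI, and Hoxa11 at 59.0 CPM and no UMI. With 3 counts as the limit, Hoxa10 was at least 49.1-fold and Hoxa11 at least 32.6-fold higher in LI pericytes. Groups 1 to 8 summed to 389 CPM in LI and 710 CPM in SI pericytes, and Hoxc8 was at 8.55 and 58.0 CPM. Pitx1, a transcription factor of the hindgut, was at 74.4 CPM and no UMI, at least 41.0-fold higher, and at 147 and 13.3 CPM in other cells. The sums thus differed between the libraries in the same direction in pericytes and in other cells, although single genes did not match: Hoxa9 and Hoxa11 were 2-fold higher in LI pericytes than in other LI cells (42 and 17.6 CPM there), Hoxb2 was 2-fold higher in the pericytes of both libraries, and Hoxa7 in those of SI. Hoxa9 (85 LI cells, richest cell 4.27%) and Hoxa10 (72 LI cells, 3.85%) were spread over many cells.

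The 10 genes that led toward LI were Hoxa10, Fst, Pitx1, Hoxa11, Pcp4, Hoxa9, Ren1, Areg, Ctla2a and Kit. Those that were neither Hox genes nor Pitx1 rested on few cells. Fst was carried by 12 LI pericytes of which 1 held 54.5% of its UMIs, Pcp4 by 3 with 85.1% in 1, Ctla2a by 15 with 70.3% in 1, Areg by 16 with 37.2% in 1 and Ren1, the gene of renin, by 10 with 39.4% in 1. In female-called pericytes alone the log2 ratio of LI over SI was 0.49 for Areg, against 5.04 in all, and 1.43 for Kit, against 3.68. Kit, the receptor that marks interstitial cells of Cajal, was carried by 11 LI pericytes and 1 SI pericyte, and by 4.67% of other LI and 1.06% of other SI cells. Ren1 UMIs were found in 3.82% of LI pericytes and 5.92% of other LI cells, so its share in pericytes was no higher than in the rest.

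The 10 genes that led toward SI were Tgtp1, Fam26f, Ubd, Vcam1, Cxcl9, Serpina3f, Serpina3g, Gbp5, Hoxc8 and Gbp4, mostly genes of the interferon response. Of 33 interferon-gamma responsive genes at the minimum, 25 were higher in SI pericytes with a median of -1.59, against 15 of 27 and -1.03 in all other cells, and against 4 of 24 and -0.64 in the pericytes without a Cxcl9 or Ubd UMI. Cxcl10 was at 640 CPM in LI and 3551 CPM in SI pericytes. Of 14 class I genes, 10 were higher in SI pericytes, against 5 of 14 in all other cells and 1 of 13 in the pericytes without a Cxcl9 or Ubd UMI. In female-called pericytes alone, Fam26f, Vcam1, Cxcl9, Gbp5, Hoxc8 and Gbp4 stayed past 2-fold (log2 ratios -3.07 to -1.45), and Tgtp1, Serpina3f and Serpina3g did not (-0.99, -0.94 and -0.90). Ubd had a log2 ratio of 1.08 there, from 1.11 CPM in LI and 0 in SI, which is too few UMIs to give a direction. Tgtp1 has the close copy Tgtp2, and its value is uncertain for that reason.

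Chemokines and adhesion molecules outside the interferon list also differed. Ccl2, which attracts monocytes, was at 189 CPM in LI and 1001 CPM in SI pericytes, whereas other cells had 488 and 296 CPM. Ccl11 was at 777 and 1620 CPM against 236 and 319 CPM in other cells. Cxcl1, which attracts neutrophils, was at 1331 and 2678 CPM against 877 and 997 CPM. Vcam1, an adhesion molecule for leukocytes, was at 6.84 and 67.6 CPM against 84.8 and 99.9 CPM. Of 12 listed cytokine and adhesion genes 7 were higher in SI pericytes and 2 in LI pericytes, and without the inflammatory pericytes 5 of 9 were higher in SI. Acta2 was at 754 and 1660 CPM, and the ratio was near that of all other cells (log2 ratios -1.14 and -1.0).

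Fibroblast genes were higher in LI pericytes. Of 16 at the minimum, 9 were 2-fold higher in LI and none in SI, with a median of 1.31 against -0.14 in all other cells. Dcn was at 2266 against 864 CPM, Lum, a related proteoglycan, at 368 against 101 CPM, and Cxcl12, a chemokine of stromal cells, at 191 against 54.4 CPM. The LI pericytes were the deeper (median 4071 against 3589 UMIs), and pericytes with at most 1 Dcn UMI were 1.42% of LI and 2.97% of SI cells. The part of free RNA or of a second cell in the droplet in this difference was not tested.

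**Figure D5:**
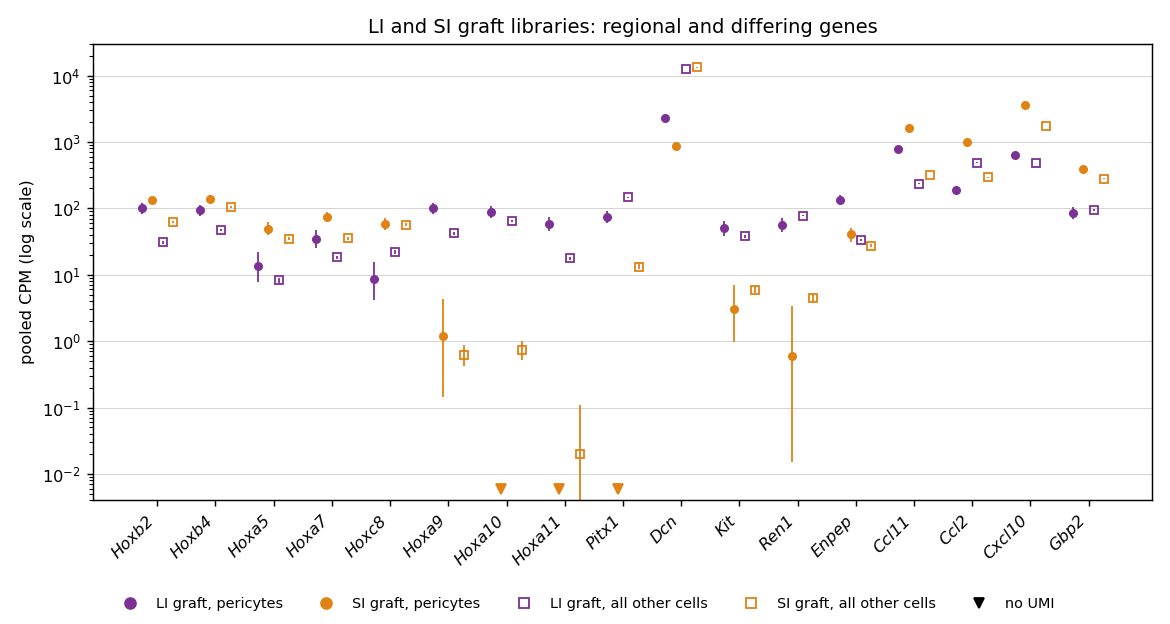
Pooled CPM (log scale) of Hox and other genes in Myh11 negative pericytes (filled circles) and all other passing cells (open squares) of the LI and SI libraries, with lines for 95% Poisson intervals and triangles where there was no UMI. Hoxa10 and Hoxa11 had no UMI in SI pericytes, Dcn was lower in pericytes than in other cells of both libraries, and Ccl2 lay at 189 CPM in LI and 1001 CPM in SI pericytes.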

How the data were processed

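Per the labels, reads were aligned to mm10 with Cell Ranger 3.1.0, and Seurat version 3 is also named in the submitters' processing notes. The authors deposited, for each library, raw UMI counts per gene and barcode (whole numbers, not normalised), and the annotation release they used was not given in the sources used here. Barcodes with fewer than 500 genes or with over 10% of UMIs from mitochondrial genes were left out. Each library had 28692 features, and 58 symbols carried by more than 1 feature were left out. Gene positions were matched by Ensembl identifier to GENCODE vM21, where each of the 502 genes named or listed was found, and promoters came from RefSeq (GRCm38.p6).

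From these counts, pooled CPM with exact Poisson intervals, shares with exact Clopper-Pearson intervals, and log2 ratios with a pseudocount of 1 CPM were computed in Python 3.11.15 with numpy 2.4.6, scipy 1.17.1 and pandas 2.3.3. Ratio intervals came from an exact binomial split of the UMIs without the pseudocount, so a point may lie outside its interval for rare genes. Genes with at least 50 CPM in 1 of the groups compared were counted, and 2-fold was the limit. A count of 0 was given the limit of 3 counts. Cells were thinned at random to 2000 UMIs, which left out 727 LI and 537 SI passing cells. The code was tested on simulated data with known ratios. No doublets were removed, and removal of the highest Scrublet scores (scanpy 1.11.5), TMM scaling (edgeR 4.0.16 in R 4.3.3) and other choices were run as alternatives. The LI pericyte richest in Cxcl9 and the pericytes with at most 1 Dcn UMI were examined after the data had been seen.

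Besides the genes of 28 lists, named genes were the 20 highest and 10 lowest in pericytes against other cells, the 10 in each direction between LI and SI pericytes, the 15 highest in inflammatory pericytes and the 8 in each direction against Myh11 positive mural cells, and some of these are not reported here. Rankings across both libraries took the smaller log2 ratio, and genes of the rule, Xist, Y-linked, haemoglobin and mitochondrial genes were left out, as were Cxcl9 and Ubd for the inflammatory pericytes. The cells, lists and comparisons were chosen with earlier results of these data known.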

Additional observations from a re-analysis of the deposited data

Results flagged for a closer look

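In the comparisons that follow, the libraries differed in direction, and the differences themselves were not tested. Ccl2 was lower in LI pericytes than in all other cells (189 against 488 CPM, log2 ratio -1.37) and higher in SI pericytes (1001 against 296 CPM, log2 ratio 1.75). Against Pdgfra positive cells, the Ccl2 log2 ratios were -1.82 (669 CPM in those cells) and 1.75 (297 CPM). In LI, 37 pericytes carried Ccl2 and the richest held 38.5% of its UMIs, and in SI there were 132 with 12.9% in the richest. Cxcl2, a neutrophil chemokine, had log2 ratios against Pdgfra positive cells of -1.26 in LI (54.7 against 133 CPM) and 1.22 in SI (237 against 101 CPM). Adamdec1, a secreted protease of gut fibroblasts, had a log2 ratio of inflammatory over other pericytes of -2.72 in LI (38.4 against 259 CPM) and 1.07 in SI (213 against 101 CPM), where 1 of 13 cells held 90.0% of its UMIs.

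Barcodes that failed the filters and entered no comparison also held cells with the pericyte pattern. In LI they were 9 of 1695 (0.531%) and in SI 17 of 1721 (0.988%), below the 2.65% and 4.42% among passing barcodes.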

How the results depend on the processing

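No paired analysis was possible because each group had 1 library. Of 200 values of 14 main results under 20 alternatives, 173 stayed near the reported value and 27 moved. A share was near when it lay inside its reported interval. For counts the limit was wide. At 2000 UMIs in LI, 10 contractile genes in place of 15, and 24 interferon-gamma responsive genes in place of 16, were taken as near. Some values could not change, such as the SI inflammatory share of 32.3% when an LI pericyte was left out. The pericyte share was 1.67% (LI) and 2.92% (SI) with UMIs of at least 3 of the 4 genes, 3.64% and 6.35% with 1 Myh11 UMI allowed, 1.42% and 2.97% for pericytes with at most 1 Dcn UMI, and 3.40% in SI female-called cells. The inflammatory share was 5.58% in LI at 2000 UMIs, 5.31% and 19.6% in female-called cells, 4.58% and 24% with at least 2 UMIs, and 2.29% and 8.0% by Ubd alone. At 2000 UMIs, 8 contractile genes were lower than in SI mural cells, in place of 13. Interferon-gamma responsive genes higher in inflammatory pericytes numbered 10 (LI) and 15 (SI) in female-called cells, and 8 in LI without the pericyte richest in Cxcl9. At a minimum of 10 CPM, 775 and 671 genes were higher in pericytes than in other cells, and 378 in LI and 287 in SI pericytes, and with no minimum 1198, 1012, 1053 and 924. Without inflammatory pericytes, 45 genes were higher in SI. Of 1924 log2 ratios of 142 gene comparisons, 13 changed sign. For LI over SI pericytes these were Pcp4 (-0.85 with 3 of the 4 genes and -1.99 at 2000 UMIs), Ctla2a (-0.15 with 3 of the 4 genes) and Ubd (1.08 in female-called cells). The Ubd value came from 1.11 CPM in LI and 0 in SI and gives no direction. For inflammatory over other pericytes in female-called cells, they were Cd74 (LI, -2.51), Fabp4 (SI, -0.34), C3 (SI, -1.50), H2-Q7 (LI, -4.31), Ifi204 (SI, -0.01), AW112010 (SI, -0.11), Serpina3g (LI, -2.51) and H2-T23 (LI, -0.85), and with at most 1 Dcn UMI it was Ccl5 (LI, -1.57). In these settings the LI inflammatory pericytes left had no UMI of Cd74, H2-Q7, Serpina3g or Ccl5, so those signs give no direction. The causes of these changes were not tested. TMM scaling shifted all ratios of a comparison by -0.15 to 0.09. Scrublet removal took 780 LI and 501 SI cells, 22 and 8 of them pericytes.

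Depth limits what a missing UMI shows. With 1169913 (LI) and 1655791 (SI) UMIs over all pericytes, a count of 0 allows up to 2.56 and 1.81 CPM.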
